A study of Mus musculus with 16 samples.

Results

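The tektins are 5 genes, Tekt1 to Tekt5, of the 55414 gene IDs measured in testes of juvenile mice with and without Ythdc2, which encodes an RNA helicase that germ cells need in meiotic prophase. The family was taken by gene symbol, and all 5 symbols matched an ID in every table. The family was chosen by the levels of Tekt3 and Tekt2 in the conditional knockout (cKO) at postnatal day 16 (P16), which had stood among the largest falls. The cKO values at P16 are therefore given for the tektins as a description, with no test. Whole testes were sequenced at P14 or P16, after tamoxifen at 10 mg/ml on P12 and P13 in the control, Cre control and cKO mice alike. Tamoxifen activates an inducible Cre recombinase, and the labels name neither the Cre line nor the alleles that each control type carries. There were 16 libraries, made up of 2 control and 3 cKO libraries at each stage, 2 Cre controls of P14 and 4 Cre controls of P16. Whether the libraries came from separate animals is not stated, so the tests measure the spread between libraries.

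Tektins are filament-forming proteins that lie along the wall of the doublet microtubules of cilia and flagella, where they help to keep the tubules stable under bending. Tekt1, Tekt2, Tekt3 and Tekt4 are found in motile cilia as well as in sperm, whereas Tekt5 is best known from the sperm flagellum. Mice without Tekt2, Tekt3 or Tekt4 have sperm that swim poorly. Flagellar genes are first transcribed in spermatocytes, long before a flagellum is built in the spermatid. Around P14 and P16 the leading spermatocytes of the first wave are entering or passing through pachytene of meiotic prophase.

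The files gave the genes as ENSMUSG00000020799 (Tekt1), ENSMUSG00000028845 (Tekt2), ENSMUSG00000042189 (Tekt3), ENSMUSG00000024175 (Tekt4) and ENSMUSG00000039179 (Tekt5). In the GENCODE M21 annotation Tekt1 and Tekt3 lie on chromosome 11, Tekt2 on chromosome 4, Tekt4 on chromosome 17 and Tekt5 on chromosome 16. Their merged exons span 1622 to 1997 bases, and the principal transcripts have 6 (Tekt4) to 11 exons (Tekt2). Tekt2 is the member that overlaps another gene, Gm12945, on the opposite strand. Gm12945 had 0 to 4 reads per library. The strand setting of the counting is not given in the sources used here, so reads of this pair may not have been told apart.

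The promoters are shown because all 5 genes moved in the same direction with stage in both control types. Tekt3 and Tekt2, whose levels at P16 led to the choice of the family, are among them. RFX factors, which drive many ciliary genes, bind the X-box, an inverted repeat whose arm has the consensus GTTGC. The stretches below are 60 bases each, 5′ to 3′ on the gene's strand, from RefSeq on GRCm38.p6, with 1 match per stretch in capitals. Further GTTGC matches, on either strand, in the Tekt1 stretch are left in lower case.
Tekt1, chr11:72361883-72361942, minus strand: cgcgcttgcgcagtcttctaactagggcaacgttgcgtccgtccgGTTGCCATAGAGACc
Tekt2, chr4:126325689-126325748, minus strand: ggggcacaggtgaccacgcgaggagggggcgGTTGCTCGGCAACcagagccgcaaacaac
Tekt3, chr11:63061599-63061658, plus strand: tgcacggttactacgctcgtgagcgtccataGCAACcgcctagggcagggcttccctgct
Tekt4, chr17:25471530-25471589, plus strand: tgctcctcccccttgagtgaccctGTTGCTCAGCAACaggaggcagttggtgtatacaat
Tekt5, chr16:10395646-10395705, minus strand: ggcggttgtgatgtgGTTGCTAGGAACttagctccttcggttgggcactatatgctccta

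The 250 bases before each transcript start were searched on both strands for GTTGC, and for a pair of arms written GTNNCNNGNNAC, GTNNCNNNGNNAC or GTNNCNNNNGNNAC. GTTGC on either strand was present before 5 of 5 tektins and before 33.0% of the 27025 genes of the table. A pair with at least 1 exact arm was present before 4 of 5, in Tekt1, Tekt2, Tekt4 and Tekt5, and before 3.55% of all genes. Tekt3 held a lone arm. The pair ended 2 bases before the start in Tekt1, 17 in Tekt2 and 24 in Tekt4, and in Tekt5 it lay 235 to 224 bases before it. The pair motif can contain the lone arm, so the counts overlap. The motif was chosen after these sequences had been read, and a match is a description of letters, not of binding.

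Depth on genes was 22220565 to 27531529 reads for the 8 libraries made with the Ribo-Zero depletion kit (controls and cKO libraries 1 and 2 of each stage) and 14494867 to 23200252 for the 8 made with the NEBNext depletion kit (Cre controls and cKO library 3 of each stage). Ythdc2 stood at 70.1 to 130.3 reads per 1000000 gene reads (CPM) over all control and Cre control libraries of P16 and at 11.6 to 20.7 CPM in the cKO libraries of P16. At P14 it stood at 72.9 to 93.9 CPM and 18.3 to 32.1 CPM. The NEBNext libraries fell into separate sequencing runs by their column names, with Cre control P16 libraries 2 to 4 in a run of their own. Spermatid transcripts were near absent, with 0 to 1 reads of Prm1 and 1 to 6 reads of Tnp1 per library. Of the defining markers of multiciliated cells, which line the efferent ducts beside the testis, Mcidas had 0 to 5 reads, whereas Foxj1 (1.27 to 4.14 CPM), Deup1 (0.81 to 4.24 CPM) and Ccno (2.28 to 4.75 CPM) were measured in every library.

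Tekt1 was the most abundant tektin per length in every group of libraries. In controls at P16 it stood at 23.3 CPM per kilobase of merged exons, followed by Tekt3 at 3.39, Tekt5 at 1.95, Tekt4 at 1.39 and Tekt2 at 0.68 CPM per kilobase, and no neighbours in that order overlapped between libraries. In Cre controls at P16 Tekt1 stood at 25.2 CPM per kilobase and Tekt2 came next at 5.35. Tekt2, Tekt3, Tekt5 and Tekt4 overlapped there from each neighbour to the next. In cKO of the Ribo-Zero kit at P16 the order below Tekt1 was Tekt5 (2.78 CPM per kilobase), Tekt4 (2.56), Tekt3 (0.67) and Tekt2 (0.45), again without overlap between neighbours. At P14 Tekt3 was the lowest of the family in Cre controls, at 0.039 CPM per kilobase, and Tekt5 in controls, at 0.25. Tekt3 and Tekt5 overlapped in those P14 controls. Tekt1 gave 51.5% to 83.7% of the family's summed CPM in a library.

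**Figure D1:**
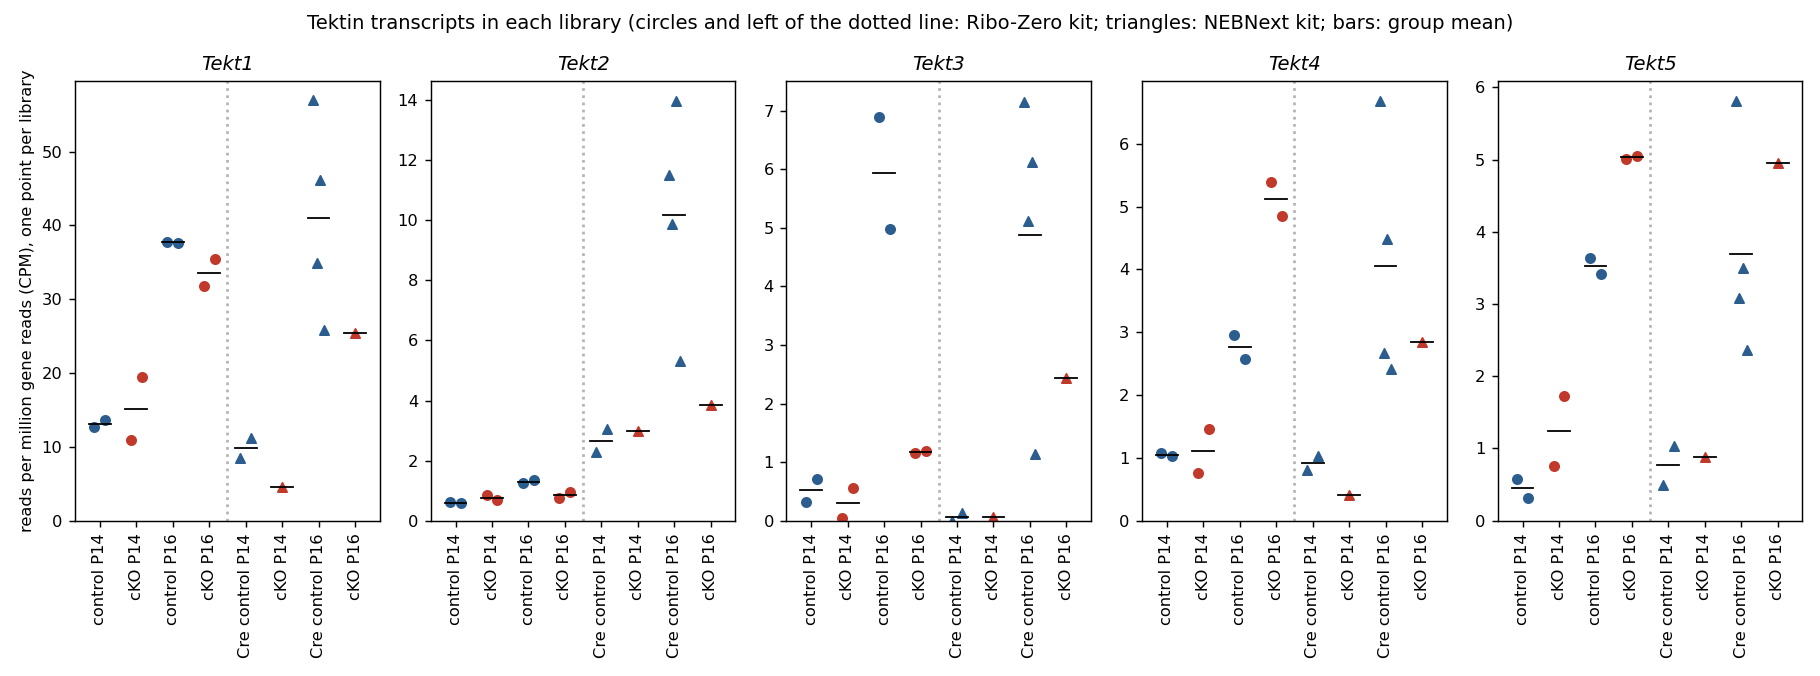
Level of each tektin in CPM (y axis, from 0) in each library, by group (x axis), with controls in blue, cKO in red, Ribo-Zero libraries as circles, NEBNext libraries as triangles and bars for the group mean. Tekt1 is the only panel that reaches 57.0 CPM, and Tekt3 at P16 separates control (4.98 and 6.88 CPM) from cKO circles (1.15 and 1.19 CPM).

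The first question was whether the tektins differed at P14, soon after the deletion. Tekt1 stood at 305 and 329 (deposited normalized values) in controls and at 266 and 456 in cKO. Tekt2 stood at 15.1 and 14.1 in controls and at 20.4 and 15.9 in cKO. Tekt3 stood at 7.54 and 17.3 in controls and at 0.97 and 13.2 in cKO, resting on 1 to 16 reads per library. Tekt4 stood at 25.8 and 24.9 in controls and at 18.4 and 34.4 in cKO. Tekt5 stood at 13.99 and 7.59 in controls and at 18.4 and 40.6 in cKO. Both cKO libraries lay above both controls for Tekt2 and Tekt5, and the groups overlapped for the other members. Groups did not overlap for 29.6% of the 17270 genes tested, and cKO lay above for 15.1%.

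None of the 5 tektins passed the test at P14, where 0.00579% of all genes did (limma with Benjamini-Hochberg adjustment). Their log2 differences, cKO minus control, were 0.14 (SE 0.24) for Tekt1, 0.29 (SE 0.31) for Tekt2, -1.24 (SE 0.93) for Tekt3, -0.0068 (SE 0.35) for Tekt4 and 1.33 (SE 0.48) for Tekt5. The adjusted p of limma was 0.9997 for each, over 2 libraries a group. Tekt5 had the lowest unadjusted p of the family, 0.029 (limma), and its cKO mean was 2.74-fold the control mean. The difference of Tekt3 was -1.24 with both cKO libraries and 0.19 without cKO library 1, which held 1 read. In the table with Cre controls, 4 tektins could be tested and Tekt3 fell under the minimum value. None of the 4 was called, as 0% of 18196 genes were (limma, with 705 genes at an unadjusted p under 0.05; edgeR called 0 and DESeq2 called 5). Limma's adjusted p was 0.485 for Tekt2 and 0.622 to 0.959 for Tekt1, Tekt4 and Tekt5. Without cKO library 3 the groups came from different kits and Tekt2 was called (-1.65, adjusted p 0.00959, limma), where kit and genotype cannot be told apart.

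Within the NEBNext kit at P14, Tekt1 stood at 81.3 in cKO library 3 and at 158 and 201 in the Cre controls, and Tekt4 at 7.17 against 14.98 and 18.5. Both lay below the 2 Cre controls, at 45.3% and 42.9% of their mean, as did 33.3% of all genes. Tekt2 (52.6 against 42.6 and 54.2) and Tekt5 (15.5 against 9.22 and 18.5) lay within the Cre controls. Tekt3 had 1 read in cKO library 3 and 0 and 2 reads in the Cre controls, too few to compare.

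At P16 the tektins did not share a direction. Tekt3 was at 19.8% of the control level in cKO and Tekt2 at 65.9%, while Tekt4 was at 185% and Tekt5 at 143%. Tekt1, the most abundant member, was at 89.4%. These values come from the comparison that led to the choice of the family, so they carry no test. For none of the 5 did the groups overlap, with 3 members lower and 2 higher in cKO, where 69.7% of all 17986 genes did not overlap (35.4% lower and 34.2% higher).

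Tekt3, needed for normal sperm movement, stood at 179 and 129 in P16 controls and at 30.1 and 31.1 in cKO libraries 1 and 2. Controls averaged 154 ± 34.8 and cKO 30.6 ± 0.70 (SD, n = 2 each), which is -2.28 on the log2 scale (SE 0.20). The controls rested on 172 and 137 reads and the cKO libraries on 31 and 30. The gap between the groups was larger than the spread within either, but Tekt3 was chosen for its fall, so the gap is no support for it.

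Tekt2 stood at 32.2 and 34.97 in controls and at 19.4 and 24.9 in cKO, from 20 to 37 reads per library. Controls averaged 33.6 ± 1.95 and cKO 22.1 ± 3.85 (SD, n = 2 each), which is -0.59 on the log2 scale (SE 0.28). Tekt1 stood at 981 and 980 in controls and at 830 and 924 in cKO. Controls averaged 981 ± 0.51 and cKO 877 ± 66.6 (SD, n = 2 each), which is -0.16 on the log2 scale (SE 0.067). The cKO libraries of both genes lay below the controls, but for Tekt1 the distance from the nearer cKO library to the controls was smaller than that between the cKO libraries.

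Tekt4 stood at 76.9 and 67.1 in controls and at 141 and 126 in cKO. Controls averaged 72.0 ± 6.92 and cKO 134 ± 10.2 (SD, n = 2 each), which is 0.88 on the log2 scale (SE 0.16). Tekt5 stood at 94.6 and 88.9 in controls and at 131 and 132 in cKO. Controls averaged 91.7 ± 4.04 and cKO 131 ± 0.37 (SD, n = 2 each), which is 0.51 on the log2 scale (SE 0.15). Both genes were thus higher in cKO while Tekt3 and Tekt2 were lower in the same libraries. In whole testes, fewer cells of a type and less RNA per cell cannot be told apart.

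The table with Cre controls at P16 sets 3 cKO libraries against 4 Cre controls, and 2 of those cKO libraries differ from every Cre control in depletion kit. Over these libraries the log2 difference was -2.66 (SE 0.56) for Tekt2, -1.33 (SE 0.63) for Tekt3, -0.30 (SE 0.28) for Tekt1, 0.23 (SE 0.42) for Tekt4 and 0.58 (SE 0.29) for Tekt5. Tekt2 was the 1 member whose groups did not overlap, with cKO below, where 30.1% of 19200 genes did not overlap and 16.9% were below. This comparison shares cKO libraries 1 and 2 with the comparison against controls, so it is not independent of it.

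Within the NEBNext kit, cKO library 3 could be set against the 4 Cre controls without a difference in kit. Tekt2 stood at 75.4 in cKO library 3 and at 228, 196, 282 and 105 in the Cre controls. It was thus below every Cre control, at 37.2% of their mean. Tekt1 stood at 495 in cKO library 3 and at 1126, 692, 933 and 510 in the Cre controls, again below all of them, though close to Cre control library 4. In cKO library 3, 30% of all genes lay below every Cre control.

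Tekt3 stood at 47.6 in cKO library 3 and at 141, 102, 124 and 22.4 in the Cre controls, so cKO library 3 lay above Cre control library 4 and below the other 3. Tekt4 stood at 55.6 in cKO library 3 against 132, 52.8, 90.6 and 47.7, and Tekt5 at 96.6 against 115, 61.1, 70.5 and 46.7, both within the range of the Cre controls. Of all genes, 54% lay outside that range. The log2 differences of cKO library 3 from the Cre controls were -0.66 for Tekt1, -1.33 for Tekt2, -0.73 for Tekt3, -0.41 for Tekt4 and 0.47 for Tekt5. Tekt4 thus had opposite signs in the NEBNext kit and in the comparison with controls.

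Cre control library 4 held the lowest value of all 5 tektins among the Cre controls at P16. Its summed level of 15 markers of pachytene and later spermatocytes was also the lowest of them, 1578 CPM against 2008 to 3028 CPM in the other 3 and 1725 CPM in cKO library 3. Without it, an alternative chosen after seeing the data, the log2 differences of cKO library 3 were -0.86 for Tekt1, -1.61 for Tekt2, -1.33 for Tekt3, -0.62 for Tekt4 and 0.28 for Tekt5. Tekt3 then lay at 39.0% of the Cre control mean, in place of 49.0%. The part of the germ cell makeup in these values was not tested.

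**Figure D2:**
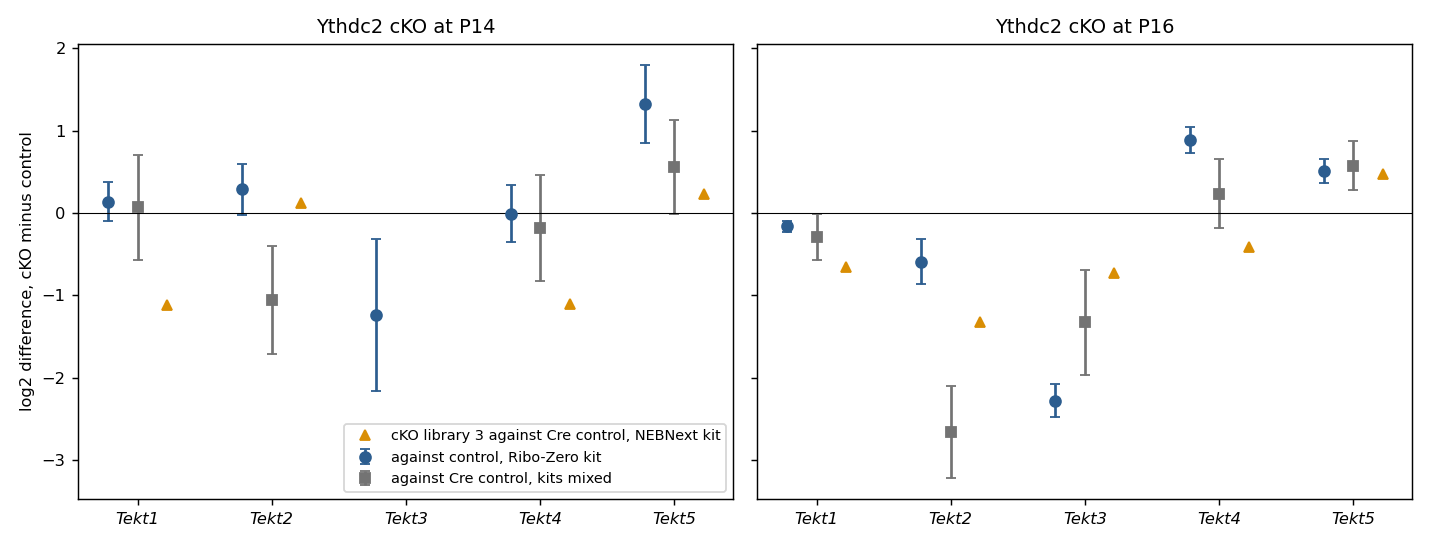
Log2 difference of each tektin, cKO minus control (y axis), at P14 (left) and P16 (right). Circles compare cKO with controls in the Ribo-Zero kit, squares compare all cKO libraries with Cre controls, with bars for the SE, and triangles show cKO library 3 against Cre controls in the NEBNext kit; Tekt3 lies below 0 in all 3 at P16 (-2.28, -1.33 and -0.73), while Tekt4 changes sign (0.88, 0.23 and -0.41).

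Tekt2 had the highest ratio of the NEBNext kit to the Ribo-Zero kit of any member in all 4 pairings below. Its mean CPM in the NEBNext kit was 3.94-fold that in the Ribo-Zero kit in cKO at P14 and 4.56-fold in cKO at P16. Between Cre controls and controls the ratio was 4.41-fold at P14 and 7.87-fold at P16. From 6.38% to 8.37% of 20304 genes had a ratio at least as high in these 4 pairings. No other tektin was higher in the NEBNext kit in all 4. Tekt1, for comparison, had ratios of 0.30 and 0.76 in cKO and of 0.75 and 1.09 between control types. Tekt3, on few reads, was further from 1 than Tekt2 at P14 in the other direction. Its ratios there were 0.22 in cKO and 0.13 between control types. The large Tekt2 difference in the mixed-kit comparison (-2.66) stood beside -0.59 and -1.33 within the kits. Kit and sequencing run cannot be told apart, since the Ribo-Zero libraries shared 1 run and the NEBNext libraries came from others. The pairings of Cre controls with controls differ in control type as well.

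From P14 to P16 every tektin was higher in both control types, with all P16 libraries above all P14 libraries for 5 of 5 in each. Among all genes this was so for 31.2% in controls and 18.9% in Cre controls. The 5 of 5 includes Tekt3 and Tekt2, whose levels at P16 led to the choice of the family, so it is a description. The stage changes of Tekt3 and Tekt2 use P16 libraries behind the choice of the family and have no test. Tekt3 in Cre controls also passed the minimum on low values through the P16 libraries. The changes of Tekt1, Tekt4 and Tekt5 passed in both control types (limma on log2 CPM, adjusted p under 0.05). Called higher were 13.3% of 18581 genes in controls and 8.97% of 18975 in Cre controls. Intervals of fold changes below are 95% exact binomial and cover counting error only.

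Tekt1 rose from 12.6 and 13.7 CPM at P14 to 37.8 and 37.7 CPM at P16 in controls, 2.87-fold, or 1.52 on the log2 scale with an SE of 0.19 (adjusted p 6.23e-04, limma). In Cre controls Tekt1 rose from 8.51 and 11.2 CPM to 57.0, 34.9, 46.2 and 25.8 CPM, 4.15-fold, or 2.01 on the log2 scale with an SE of 0.27 (adjusted p 0.00123, limma). The lowest P16 library was still more than the highest P14 library in both sets. Within the sequencing run that held both stages, Cre control P16 library 1 was 5.77-fold the P14 mean for Tekt1, 7.59-fold for Tekt5, 7.25-fold for Tekt4 and 4.31-fold for Tekt2.

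Tekt5 rose from 0.58 and 0.32 CPM to 3.64 and 3.41 CPM in controls, 7.88-fold, or 2.93 on the log2 scale with an SE of 0.37 (adjusted p 5.63e-04, limma). In Cre controls Tekt5 rose from 0.50 and 1.03 CPM to 5.81, 3.08, 3.49 and 2.36 CPM, 4.81-fold, or 2.20 on the log2 scale with an SE of 0.39 (adjusted p 0.00529, limma). The Tekt5 call in Cre controls did not hold without Cre control P14 library 1 (limma adjusted p 0.0875). Tekt4 rose from 1.07 and 1.04 CPM to 2.96 and 2.58 CPM in controls, 2.63-fold, or 1.36 on the log2 scale with an SE of 0.27 (adjusted p 0.00688, limma). In Cre controls Tekt4 rose from 0.81 and 1.03 CPM to 6.68, 2.66, 4.48 and 2.41 CPM, 4.41-fold, or 1.98 on the log2 scale with an SE of 0.41 (adjusted p 0.0108, limma). Its call did not hold in controls without control P16 library 1 (limma adjusted p 0.0664), nor in Cre controls without Cre control P14 library 1 (0.114) or with eBayes without trend (0.0598).

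Tekt2 went from 0.62 and 0.59 CPM to 1.24 and 1.34 CPM in controls, 2.14-fold, or 1.05 on the log2 scale with an SE of 0.28, given with no test. The change rested on 27 reads at P14 and 68 at P16, a rate ratio of 2.14 (1.35 to 3.48). In Cre controls Tekt2 went from 2.30 and 3.04 CPM to 11.5, 9.87, 13.97 and 5.32 CPM, 3.81-fold, given with no test. With no filter on low counts the calls of Tekt1, Tekt4 and Tekt5 in Cre controls were lost (limma adjusted p 0.0866 to 0.123).

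Tekt3 had the steepest course. In controls it went from 0.31 and 0.72 CPM at P14 to 6.88 and 4.98 CPM at P16, 11.5-fold, from 23 reads to 309, given with no test. In Cre controls Tekt3 had 0 and 2 reads at P14 and 123, 98, 142 and 23 reads at P16. The rate ratio was 73.9 (20.3 to 613), given with no test. Cre control library 4, at 1.13 CPM, lay far under the other P16 libraries at 5.12 to 7.15 CPM.

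In cKO libraries of the Ribo-Zero kit the ratio of mean CPM at P16 to that at P14 was smaller than in controls for 4 members and larger for Tekt4. It was 1.12 for Tekt2, with overlapping stages, and 3.88 for Tekt3, 2.21 for Tekt1, 4.60 for Tekt4 and 4.04 for Tekt5, without overlap. The same ratio in the controls was 2.14, 11.5, 2.87, 2.63 and 7.88 in that order. For Tekt5 the smaller ratio in cKO went with a higher P14 level, 1.24 CPM in cKO against 0.45 CPM in controls. In cKO library 3 the ratios were 1.30 for Tekt2, 36.0 for Tekt3 (6.06 to 1461, from 1 read at P14), 5.50 for Tekt1, 7.002 for Tekt4 and 5.62 for Tekt5. In Cre controls of that kit they were 3.81, 70.7, 4.15, 4.41 and 4.81 in that order, smaller than in cKO library 3 for Tekt1, Tekt4 and Tekt5. With Cre control P16 library 1 alone, of the same run as cKO library 3, they were 4.31, 104, 5.77, 7.25 and 7.59, each larger than in cKO library 3. Whether the stage ratios differ between genotypes was not tested.

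**Figure D3:**
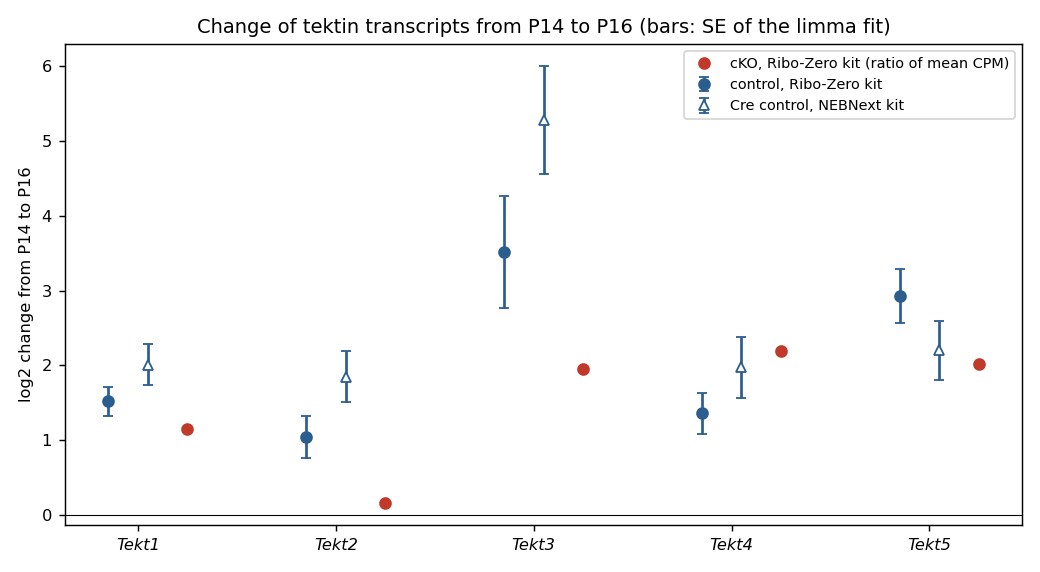
Log2 change of each tektin from P14 to P16 (y axis) in controls (filled blue circles) and Cre controls (open triangles), with bars for the SE of the limma fit, and the log2 ratio of mean CPM in cKO libraries 1 and 2 (red). All control values lie above 0, and the red points lie under both control values for Tekt1, Tekt2, Tekt3 and Tekt5 and above both for Tekt4.

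Other proteins of the axoneme were read beside the tektins. The first list held proteins inside the doublet microtubule, where tektins lie, with 26 of 46 symbols matched. At P16, 2 of 23 tested members were higher and 11 lower in cKO than in controls (limma, adjusted p under 0.05, where 38.6% of all genes were called, 18.6% higher and 19.9% lower), and the median log2 difference was -0.31 beside -0.0005 over all genes. Cfap53, which is needed for normal flagella, fell from 143 ± 10.8 to 64.2 ± 2.95 (SD, n = 2 each), or -1.14 on the log2 scale with an SE of 0.16 (adjusted p 1.30e-04, limma). Cfap161 fell from 236 ± 29.8 to 121 ± 2.93, by 0.95 on the log2 scale (SE 0.13, limma adjusted p 1.20e-04). Cfap52 fell from 571 ± 47.2 to 310 ± 3.65, by 0.87 on the log2 scale (SE 0.087, limma adjusted p 1.09e-05).

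The second list held radial spokes and the nexin-dynein regulatory complex, which join the doublets and govern dynein, with 32 symbols that name 31 genes. Here 1 of 28 tested genes was higher and 11 were lower in cKO, with a median log2 difference of -0.20. Ccdc65, a subunit of the nexin-dynein complex, fell from 843 ± 33.3 to 402 ± 27.7 (SD, n = 2 each), or -1.07 on the log2 scale with an SE of 0.077 (adjusted p 9.24e-07, limma). Drc1, a scaffold of the same complex, fell by 0.69 on the log2 scale (SE 0.096, limma adjusted p 1.33e-04), and Rsph14 by 1.30 (SE 0.31, limma adjusted p 0.00476). Of 11 regulators of ciliary or spermatocyte transcription, 3 were higher and 0 lower. These were Mybl1, a transcription factor of pachytene (0.38, SE 0.052), Rfx4 (0.29, SE 0.097) and Ybx2, an RNA-binding protein of germ cells (0.26, SE 0.048). Rfx2, the RFX factor best known from spermatogenesis, had or 0.032 on the log2 scale with an SE of 0.062 (adjusted p 0.719, limma).

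Against Cre controls at P16, 1 gene of each of these 3 lists was called, all lower, where 9.07% of all genes were called, 4.3% higher and 4.77% lower. They were Spaca9 (-1.07, SE 0.26, limma adjusted p 0.0474) of the inner proteins, Rsph3b (-1.01, SE 0.25, limma adjusted p 0.0483) of the spokes and Foxj1 (-1.01, SE 0.24, limma adjusted p 0.0464), a master regulator of motile cilia. Within the kits the log2 difference of Spaca9 was -0.76 against controls and -1.21 in the NEBNext kit. That of Rsph3b was 0.026 (limma adjusted p 0.821) and -0.44, and that of Foxj1 was -0.56 (limma adjusted p 0.0724) and -0.87. The calls of that comparison numbered 1741, and 0 without any 1 of 6 of its 7 libraries (every Cre control library and cKO libraries 1 and 2) and 9427 without cKO library 3. Within the NEBNext kit, cKO library 3 lay below the mean log2 value of the Cre controls for 21 of 23 inner proteins (median log2 difference -0.53) and 26 of 28 spoke and regulatory complex genes (-0.64). Of all genes 52.8% lay below that mean, with a median log2 difference of -0.025.

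At P14 no gene of these 3 lists was called against either control type, where 0.00579% and 0% of all genes were called. Within the NEBNext kit at P14, the median log2 difference of cKO library 3 from the Cre controls was -0.079 for inner proteins. It was -0.40 for spoke genes and -0.13 for regulators, beside -0.021 over all genes. With stage, 20 of 24 inner proteins, 27 of 28 spoke genes and 7 of 11 regulators rose in controls, and 20 of 23, 26 of 28 and 6 of 12 rose in Cre controls, with 0 called lower in each. Of all genes, 13.3% and 8.97% were called higher and 6.67% and 2.82% lower. In the P14 comparisons 23 inner proteins, 27 spoke genes and 11 regulators passed the minimum on low values. Genes beyond these entered the stage counts with the P16 libraries added. The median log2 change of the inner proteins was 0.98 in controls and 1.32 in Cre controls, beside -0.015 and -0.0065 over all genes. Rfx2 rose by a log2 change of 0.87 (SE 0.14) in controls and 1.43 (SE 0.19) in Cre controls.

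**Figure D4:**
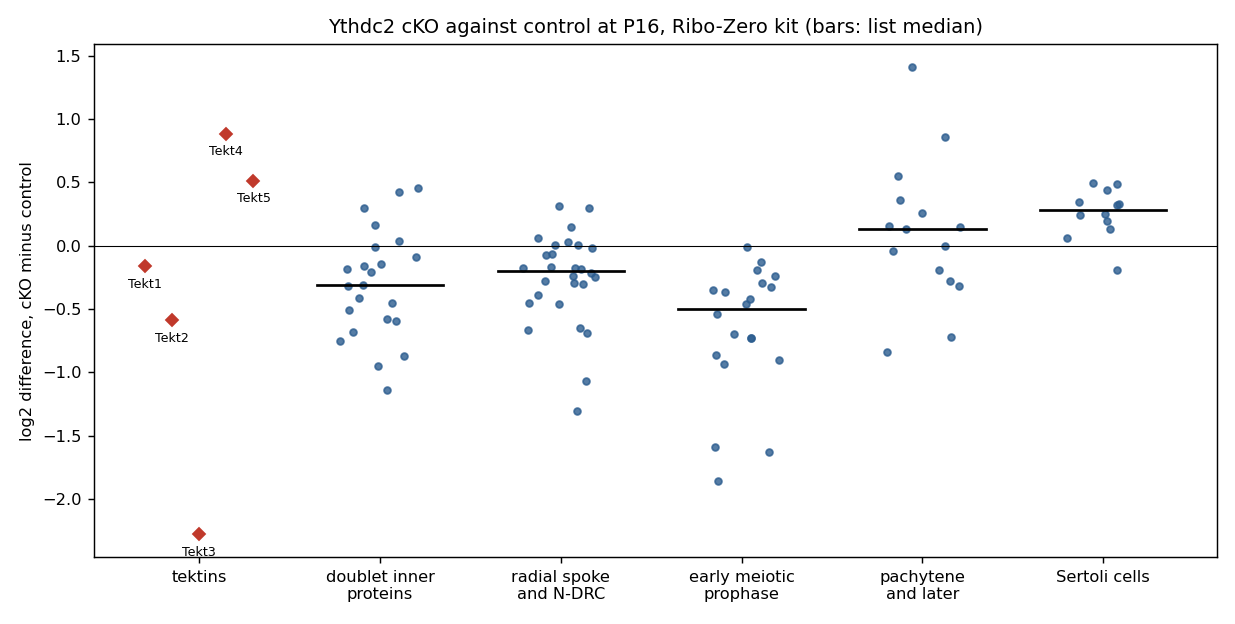
Log2 difference at P16, cKO minus control in the Ribo-Zero kit (y axis), for the 5 tektins (red diamonds) and for each tested gene of 5 lists (blue points, bars for the median). The tektins lie between -2.28 and 0.88, values that led to their choice, and the median of the doublet inner proteins is -0.31.

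Markers of the cell types of the testis moved as well at P16, where 18.6% of all genes were called higher and 19.9% lower. Of 20 genes of early meiotic prophase, 0 were higher and 18 lower in cKO than in controls (median log2 difference -0.50), and their summed level was 4064 to 4176 CPM in controls and 2832 to 3041 CPM in cKO. Of 15 genes of pachytene and later spermatocytes, 6 were higher and 3 lower (0.13), with sums of 1927 to 1930 CPM and 2074 to 2293 CPM. Of 15 spermatogonial genes, 2 were higher and 11 lower. Of 12 Sertoli cell genes 9 were higher and 0 lower (4403 to 4615 CPM against 5257 to 5790 CPM), and of 8 macrophage genes 7 were higher and 0 lower (125 to 126 CPM against 171 to 178 CPM). Of 6 Leydig cell genes 3 were higher, of 5 genes of efferent duct and epididymal epithelium 2, of 5 of multiciliated cells 1 and of 3 of spermatids 1, with 0 lower in each. Against Cre controls, where the kits are mixed, 4.3% of all genes were called higher and 4.77% lower. In that comparison 1 early prophase gene was called higher and 4 lower, 1 pachytene gene higher and 0 lower (median -0.12), and 0 spermatogonial genes. Sertoli cells and macrophages had 1 called higher each and 0 lower. In cKO library 3 within the NEBNext kit the median log2 difference was -0.39 for early prophase, -0.18 for pachytene (11 of 15 lower), 0.069 for spermatogonia, 0.14 for Sertoli cells and 0.21 for macrophages.

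The multiciliated list includes ciliary regulators that spermatocytes may also express. At P16 its sum in the Ribo-Zero kit was 12.8 to 13.2 CPM in controls and 14.5 to 14.7 CPM in cKO. In the NEBNext kit the order was reversed, at 13.5 to 16.3 CPM in Cre controls and 11.7 CPM in the cKO library. Mcidas had at most 5 reads in any library. With stage, 15 of 15 pachytene genes rose in both control types, with median log2 changes of 1.94 and 2.45. Of these genes, 14 passed the minimum on low values in the P14 comparisons, and the rest entered with the P16 libraries added. The pachytene sum went from 721 to 816 CPM at P14 to 1927 to 1930 CPM at P16 in controls. The part of these shifts in the tektin values was not tested.

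The members were also compared with each other and with all genes by their course over libraries, as Pearson r of log2(CPM + 1) over 8 libraries per kit. The libraries of a kit share their stages and genotypes, so these values are descriptions. Tekt4 and Tekt5 had r = 0.95 in the Ribo-Zero kit and 0.92 in the NEBNext kit, whereas Tekt3 had 0.50 and 0.94 with Tekt4 and Tekt2 had 0.42 and 0.87. Tekt2 and Tekt3 had 0.85 and 0.94 with each other. In the Ribo-Zero kit, r was higher within each of these pairs than between their members (0.42 to 0.62), and Tekt1 had 0.73 to 0.94 with the other members. This split did not hold in the NEBNext kit, where r was higher for Tekt3 with Tekt4 than for Tekt4 with Tekt5. Both kits include cKO libraries of P16, which led to the choice of the family, so the pairs in part restate those values.

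Of 14720 genes with at least 1 CPM on average in both kits, the closest to Tekt1 by the smaller r of the kits were Cfap206 (0.996), Cox8c (0.995) and Fam181a (0.994). Cfap206, a radial spoke protein of flagella, is also in the spoke list. The closest to Tekt3 were Gm7444 (0.967), Cfap53 (0.963) and Zbbx (0.960). The closest to Tekt4 were Cds1 (0.980), Kdm3a (0.978), a histone demethylase needed for spermiogenesis, and Insl6 (0.977), a relaxin-like peptide of the germ line. The closest to Tekt5 were Abca16 (0.988), 4933406F09Rik (0.986) and Papolb (0.985), a testis poly(A) polymerase. Tekt2 averaged under 1 CPM in the Ribo-Zero kit and was not ranked.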

How the data were processed

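The authors deposited 4 tables of normalized read counts, 1 per stage and control type. The submitters' processing notes name Trim Galore, STAR, HTSeq, DESeq2 and GRCm39 without roles. The deposited values are a signal of reads divided by a size factor per library and table. Whole reads were recovered from 100% of them (tolerance 0.01), and CPM was computed from these. The 4 summary rows of each table were left out. GENCODE M21 named 52081 of 55414 IDs. All 5 promoters were matched by symbol.

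limma 3.58.1 (eBayes with trend, R 4.3.3) tested log2(deposited value + 1) over genes with at least 10 in at least 2 libraries, which understates changes of low genes. Stage changes used log2 CPM (TMM, prior count 1) of a kit's 8 libraries. P-values were adjusted over all genes tested by Benjamini-Hochberg, with a threshold of 0.05. edgeR 4.0.16 and DESeq2 1.42.0 were alternatives on recovered reads. The limma steps were also run on simulated data with changes placed only in genes of higher counts, which does not cover members with few reads. The members and lists were chosen with earlier results of these data known. Named are the tektins, Ythdc2, the defining markers of multiciliated cells, up to 3 called genes per list with the largest change, and 3 genes of most alike course. Rfx2, Gm12945 and single spermatid markers were named outside that rule.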

Additional observations from a re-analysis of the deposited data

Results flagged for a closer look

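Tekt2 had opposite signs at the 2 stages in the comparison of cKO with control. Its log2 difference was 0.29 at P14, where both cKO libraries lay above both controls, and -0.59 at P16, where both lay below. The difference between the stages was not tested. The P14 values rested on 13 to 21 reads per library and the P16 values on 20 to 37. No library among the 4 Cre controls at P16 stood apart from the other 3 by Dixon's test for any of the 5 tektins. With 4 libraries the test needs a gap above 0.829 of the range, so it can miss a library that stands apart. It takes each gene alone, whereas Cre control library 4 was the lowest for all 5.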

How the results depend on the processing

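Tektin differences near 0 at P14 changed sign. Against controls, Tekt4 was 0.0072 with a pseudocount of 10, 0.067 with edgeR and 0.059 with DESeq2, and without single libraries it ranged from -0.44 to 0.43, Tekt1 from -0.25 to 0.52 and Tekt3 from -1.79 to 0.19. Against Cre controls, Tekt1 was -1.12 and Tekt2 0.13 with kit as a covariate, Tekt4 was 0.015 with edgeR and 0.017 with DESeq2, and without single libraries Tekt1 ranged from -0.42 to 0.66 and Tekt4 from -0.63 to 0.29. Under the replicate block Tekt4 was 0.29, and Tekt1 (0.66, limma adjusted p 0.0301) and Tekt2 (-1.65, 0.00405) were called; cKO library 3 then has no same-numbered control, so the groups differ in kit. At P16 no tektin changed sign against controls under any alternative run. The groups of no member overlapped there, so leaving out a library could not change a sign. Those values also led to the choice of the family, so the kept signs are no support for them. Against Cre controls at P16, Tekt4 was -0.41 with kit as a covariate and Tekt2 -1.33. Counts of called genes at P14 against controls (1) were 0 with no filter and without trend and 6 with DESeq2, and 0 to 11 without single libraries. Against Cre controls at P14 (0) they were 5 with DESeq2 and 0 to 6256 without single libraries, the highest without cKO library 3. At P16 against controls (6939) they were 1806 without trend and 4591 to 7045 without single libraries. Against Cre controls at P16 (1741) they were 3277 with a pseudocount of 10, 917 with no filter, 32 without trend, 4140 with DESeq2, 1 with kit as a covariate and 0 to 9427 without single libraries. For the stage change they were 2166 without trend in controls (3714), and 49 with no filter and 879 without trend in Cre controls (2237), with 1640 to 2613 and 580 to 2781 without single libraries. With a replicate block the counts were 5, 6966, 8200 and 0 in the order of the cKO comparisons above. Correlations of same-numbered libraries ran from -0.23 to 0.30. With so few libraries a group, and mixed kits in the Cre comparisons, these cannot tell whether the numbers pair the samples. The causes were not tested. List counts were not recomputed under these alternatives. Tekt3 at P14 and Tekt2 in the Ribo-Zero kit were limited by depth, at 0 to 16 and 13 to 37 reads.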
